A study of Elodea nuttallii and Chlamydomonas reinhardtii with 18 samples.

Results

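Shoots of Elodea nuttallii, a submerged freshwater plant, were compared between Babeni site 2 and Babeni site 1 in the River Olt. The comparison took the 3 libraries labelled Babeni site 2 and the 3 labelled Babeni site 1, which are 6 of the 18 libraries of the series. The series, whose title concerns mercury toxicity in the field, also holds 3 Elodea libraries from Valcea and 9 libraries of a green alga from the same 3 places. Each Elodea library is total RNA of the top 10 cm of shoots with the apex, taken from plants that grew at a clean place and were then held in the river for 2 h. Both Babeni groups share this origin and this exposure, and the site is the difference that the labels give between them. For each site, the sources used here give no mercury level, no light level and no hour of day. Nothing in the labels tells if the 3 libraries of each site stem from different plants, so the p-values speak only of the spread among libraries, part of which may be technical.

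Submerged shoots harvest light with chlorophyll proteins of the thylakoid membrane, the antennae, which feed the photosystems. When more light arrives than can be used, plants make early light-induced proteins (ELIPs), depend on the PsbS protein to dissipate the excess as heat, and move their chloroplasts. Photoreceptors and the COP1 and SPA proteins control many of the same genes through CONSTANS-like and B-box factors, and the circadian clock times them. Mercury binds thiols, and heat shock proteins, antioxidant enzymes and metal transporters are the classes usually examined after metal exposure.

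Values are the authors' normalised read counts, reads scaled by library (CPM). Differences are Babeni site 2 minus Babeni site 1 on the log2(CPM + 0.5) scale with their standard error (SE), a scale that understates the change of low transcripts. A transcript rose or fell where limma's adjusted p lay under 0.05 with a change of 2-fold or more. The table has no gene models, and its 58110 assembled transcripts are numbered within 37036 loci. Descriptions come from the authors' tables of changed transcripts, so they exist for 4704 transcripts chosen on these same samples, and each list of described members was in part selected by its response to site. In bulk tissue, fewer cells of a type and less RNA per cell cannot be told apart.

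The Babeni site 2 libraries held 6932366 to 7824727 reads and the Babeni site 1 libraries 4578385 to 4985937. On log2 values, libraries correlated at 0.953 to 0.960 within Babeni site 2, at 0.939 to 0.950 within Babeni site 1 and at 0.911 to 0.927 between them, as a description over transcripts. Of 56752 transcripts tested, 1805 changed (3.18%), 879 rising (1.55%) and 926 falling (1.63%), in 1466 loci. On sums over the transcripts of each locus 662 loci rose (1.82%) and 584 fell (1.61%). The median difference over all tested transcripts was 0.02. Leaving out 1 library moved the count of risen transcripts most, to 496 without site 2 replicate 1, 582 without site 2 replicate 3 and 536 without site 1 replicate 3. Fallen transcripts numbered 695 to 793 when a library was left out. The authors' deposited table lists 2843 transcripts for this pair of sites, 1368 of them higher at Babeni site 2 and 1475 lower, and 1794 of the 1805 are in it.

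**Figure D1:**
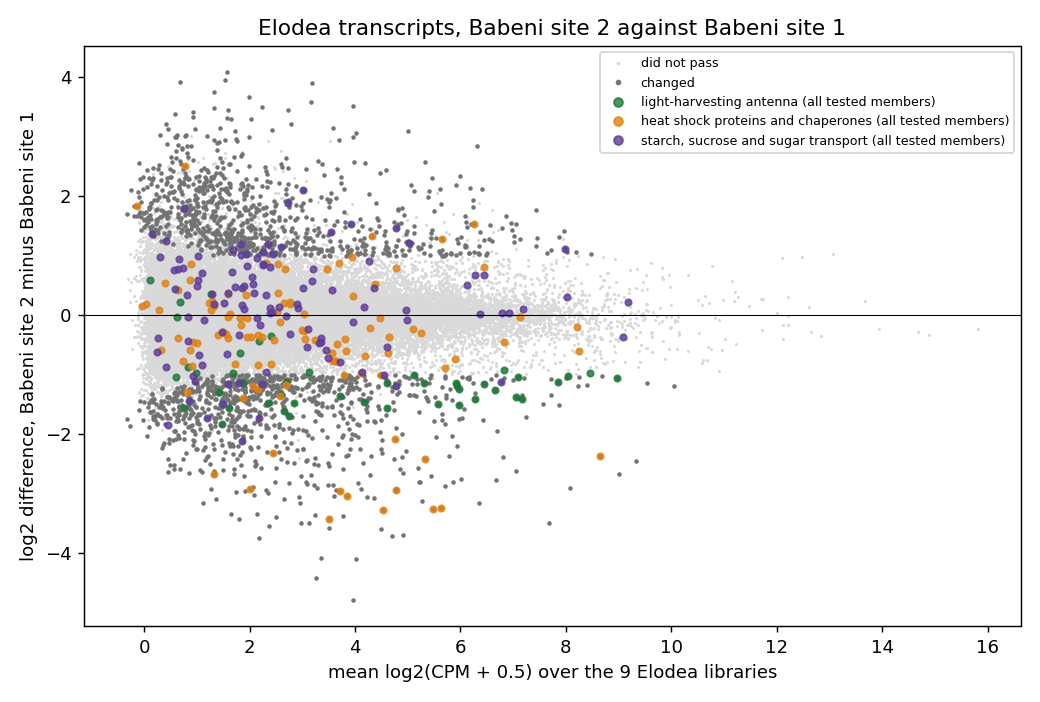
Each point is a tested transcript, with its mean log2(CPM + 0.5) over the 9 Elodea libraries across and its log2 difference, Babeni site 2 minus Babeni site 1, upward. Dark grey marks the 1805 changed transcripts, and colours mark all tested members of 3 lists: most antenna transcripts lie below 0, and a group of chaperone transcripts lies lower still.

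Among described transcripts the background is higher, because description depended on change: 656 of 4661 changed (14.1%), 252 rising (5.41%) and 404 falling (8.67%). Their median difference was -0.06. The counts of each list below are to be read against these shares. Of 28 lists, the light-harvesting antenna, chlorophyll synthesis, photoprotection and light signalling lists had the highest shares fallen. The shares by list are plotted for all 28.

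**Figure D2:**
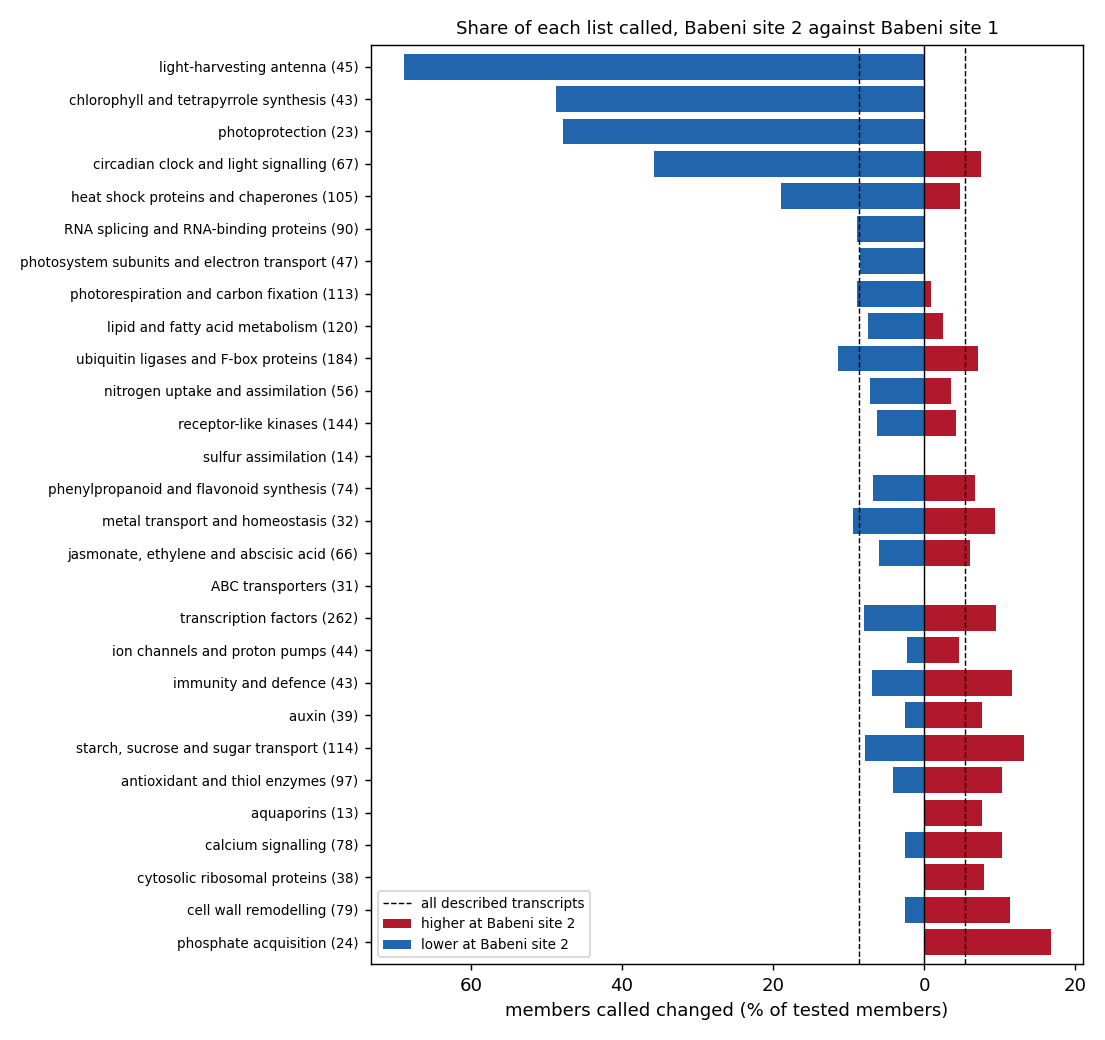
Bars give the percent of each list's tested members (number in brackets) that rose at Babeni site 2 (red, right) or fell (blue, left), and dashed lines give the same shares for all described transcripts, 5.41% risen and 8.67% fallen. Antenna, chlorophyll synthesis, photoprotection, light signalling and chaperone lists extend far left of the line, while most other lists lie near the lines. Of the 20 fallen chaperone transcripts 11 belong to 1 locus, Locus_1034.

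The described antenna transcripts had less summed signal at Babeni site 2, with 1876, 1776 and 2060 CPM against 4512, 3756 and 4255 CPM at Babeni site 1. Of 45 tested members, which encode the proteins that hold most of the leaf's chlorophyll, 31 fell, none rose and 14 did not pass, with a list median of -1.14. The fallen members came from 9 of 20 loci, and 9 from Locus_303 and 11 from Locus_41 make up most of them. Sequence is shared within a locus, which makes the assignment of reads to its transcripts uncertain. A type III protein of the light-harvesting complex of photosystem II (Locus_303_Transcript_12_13_) had 364, 348 and 367 CPM at Babeni site 2, against 762, 734 and 748 CPM at Babeni site 1. The 6 values formed narrow groups that did not overlap (log2 difference -1.06 ± 0.12, limma adjusted p = 2.4e-05), and with quantile normalization the difference was -0.99, just short of 2-fold. Valcea shoots had 544, 460.5 and 416 CPM of it, above Babeni site 2 and below Babeni site 1. Over the 10 transcripts of Locus_303 the summed signal was 682, 671 and 737 CPM at Babeni site 2, against 1570.1, 1415 and 1489 CPM at Babeni site 1.

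Fallen members of other antenna loci gave the same picture, while the highest difference in the list was 0.588. Locus_9667_Transcript_2_2_, chosen after its values were seen, had 37.8, 37.2 and 47.1 CPM at Babeni site 2, against 105, 90.8 and 92.004 CPM at Babeni site 1. Every Babeni site 2 library lay below every Babeni site 1 library (log2 difference -1.23 ± 0.15, limma adjusted p = 7.6e-05). The widest difference in the list was that of Locus_10014_Transcript_2_4_, with 0.468, 2.13 and 1.299 CPM at Babeni site 2, against 4.79, 6.68 and 4.94 CPM at Babeni site 1. Its Babeni site 2 values were lower without overlap (log2 difference -1.83 ± 0.34). Locus_41 holds 50 transcripts, of which 13 have a description. It also includes a transcript described as a starch synthase, so an assembled locus can mix genes. Its sum was 11176, 9143 and 12231 CPM at Babeni site 2, against 18850.4, 14712 and 16711 CPM at Babeni site 1, and as a locus it did not pass (log2 difference -0.63 ± 0.17, limma adjusted p = 0.043 over locus sums, short of 2-fold). By contrast 4 of 47 photosystem subunits and electron carriers fell (8.51%, close to the background), the list median was -0.10 and none rose. That count was 1 without site 2 replicate 3 and 2 without site 1 replicate 1 or 2. The difference between both lists was not tested.

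**Figure D3:**
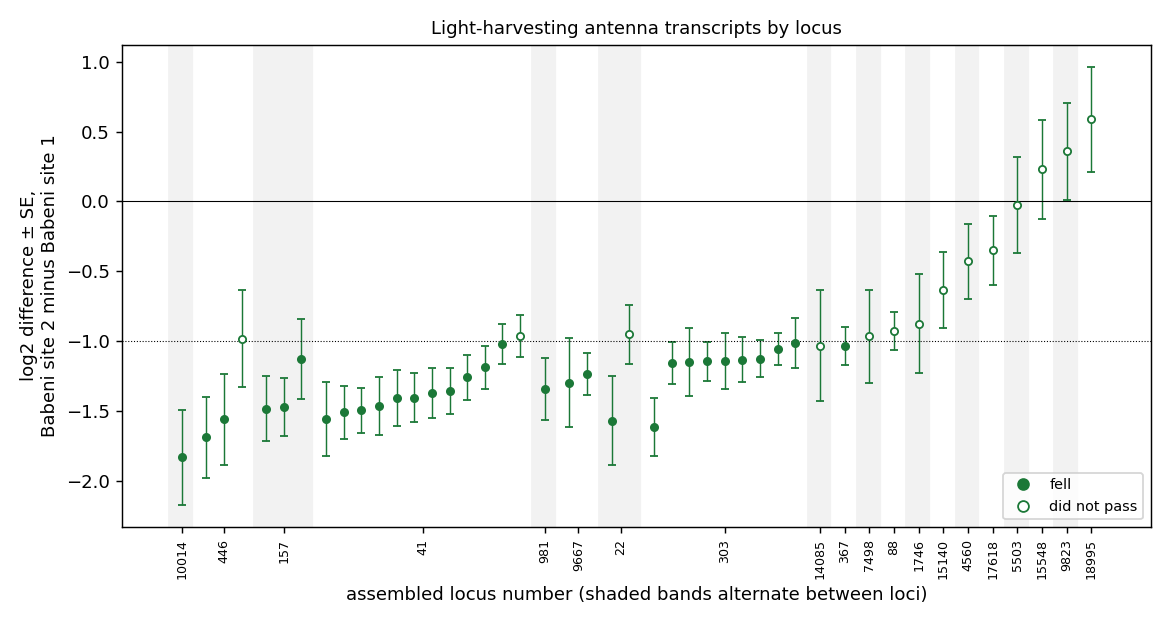
Points are the 45 tested antenna transcripts, grouped by assembled locus across and with the log2 difference, Babeni site 2 minus Babeni site 1, and its SE upward. Filled points fell and open points did not pass; the 31 filled points lie between -1.01 and -1.83 in 9 loci.

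Photoprotection transcripts fell as well. Of 23 tested members 11 fell, none rose and the list median was -0.95. The list was built from words, and 3 of the 11 are described as a peroxisomal membrane protein of 22 kDa, which is no photoprotection protein. All 3 ELIP transcripts, of Locus_1947, fell. Locus_1947_Transcript_3_4_ had 122, 125 and 156 CPM at Babeni site 2, against 689, 754 and 765 CPM at Babeni site 1. The groups lay far apart (log2 difference -2.46 ± 0.14, limma adjusted p = 6.5e-09). The steepest of the 3, Locus_1947_Transcript_2_4_, had 44.2, 37.8 and 50.5 CPM at Babeni site 2, against 290.3, 350.0 and 362 CPM at Babeni site 1, again without overlap (log2 difference -2.91 ± 0.13, limma adjusted p = 1.2e-09). Valcea shoots held still more, with 3204, 2741 and 2304 CPM and 1433, 1389 and 1259 CPM for these transcripts, so Babeni site 2 had the lowest ELIP signal of the 3 places. A PsbS-like transcript (Locus_27_Transcript_12_16_), one of the 5 fallen described transcripts with the highest CPM, had 414, 368 and 514 CPM at Babeni site 2, against 1032, 926 and 962 CPM at Babeni site 1. Babeni site 2 was lower in each library, and site 2 replicate 3 was its highest (log2 difference -1.18 ± 0.14, limma adjusted p = 7e-05). At Valcea it stood at 3248, 2975 and 2337 CPM.

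A plastid movement impaired1 transcript, whose Arabidopsis relative is needed for chloroplasts to move with light, fell steeply. Locus_16562_Transcript_1_1_, chosen after its values were seen, had 27.8, 23.4 and 25.4 CPM at Babeni site 2, against 174, 186 and 169.6 CPM at Babeni site 1. Both groups were tight and did not overlap (log2 difference -2.77 ± 0.12, limma adjusted p = 5.9e-10). Valcea libraries held 247, 231 and 223 CPM, the highest of the 3 places.

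Pigment synthesis moved in the same direction as the antenna. Of 43 tested members of the chlorophyll and tetrapyrrole list 21 fell and none rose (48.8%, median -0.99). The 4 transcripts of Locus_980 and the 3 of Locus_304 described as glutamyl-tRNA reductase, the enzyme that commits glutamate to tetrapyrrole synthesis, fell. Locus_980_Transcript_5_8_, chosen after its values were seen, had 7.25, 5.63 and 8.66 CPM at Babeni site 2, against 24.1, 18.9 and 30.7 CPM at Babeni site 1. Babeni site 1 varied more than Babeni site 2, but the ranges did not overlap (log2 difference -1.70 ± 0.20, limma adjusted p = 4.1e-05). Magnesium chelatase, which inserts magnesium on the way to chlorophyll, fell in 4 transcripts of 2 loci. Its Locus_2266_Transcript_8_10_ had 48.8, 42.1 and 46.8 CPM at Babeni site 2, against 100.2, 99.99 and 105 CPM at Babeni site 1, a difference a little over 2-fold with no overlap (log2 difference -1.14 ± 0.13, limma adjusted p = 3.2e-05). A geranylgeranyl reductase, which makes the phytol tail of chlorophyll, averaged 2.35 ± 0.466 CPM at Babeni site 2, against 7.58 ± 1.37 CPM at Babeni site 1 (SD, n = 3 each; Locus_189_Transcript_4_13_, log2 difference -1.50 ± 0.23, limma adjusted p = 0.00051, chosen after its values were seen). With reads thinned to equal depth it did not pass (-0.90, adjusted p = 0.1). Of the 3 list members of Locus_189 it was the 1 that fell, and 4 of the 9 tested transcripts of the locus fell. The locus sum differed by -0.86 ± 0.12 and missed 2-fold.

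The list also takes in heme-binding proteins, of which 8 of 12 fell, and 1 of them had the steepest fall among described transcripts with at least 5 CPM at the higher site. Locus_15194_Transcript_4_6_, a heme-binding-like chloroplast protein, had 2.11, 1.38 and 2.31 CPM at Babeni site 2, against 44.2, 33.6 and 44.7 CPM at Babeni site 1. The Babeni site 2 libraries were all low, while Babeni site 1 lay close to Valcea, where it had 52.02, 42.4 and 35.7 CPM (log2 difference -4.10 ± 0.20, limma adjusted p = 1.4e-09). All 5 transcripts of the locus fell, and their sum was 26.2, 31.7 and 34.2 CPM at Babeni site 2, against 232, 197 and 246 CPM at Babeni site 1. Zeaxanthin epoxidase, which ends the xanthophyll cycle's heat dissipation, had 6.32, 9.76 and 5.92 CPM at Babeni site 2, against 15.3, 16.2 and 17.2 CPM at Babeni site 1 (Locus_1009_Transcript_2_2_, chosen after its values were seen). Its groups did not overlap, but the difference of -1.13 ± 0.19 missed 2-fold without site 2 replicate 3. A plastid-lipid-associated protein of the fibrillin family, Locus_8988_Transcript_4_6_, averaged 0.548 ± 0.102 CPM at Babeni site 2, against 5.61 ± 1.53 CPM at Babeni site 1 (SD, n = 3 each) and fell (log2 difference -2.52 ± 0.28). It is a minor transcript of its locus, whose sum was 59.5, 60.5 and 55.2 CPM at Babeni site 2, against 51.5, 68.5 and 69.6 CPM at Babeni site 1. That sum did not pass (log2 difference -0.10 ± 0.13).

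**Figure D4:**
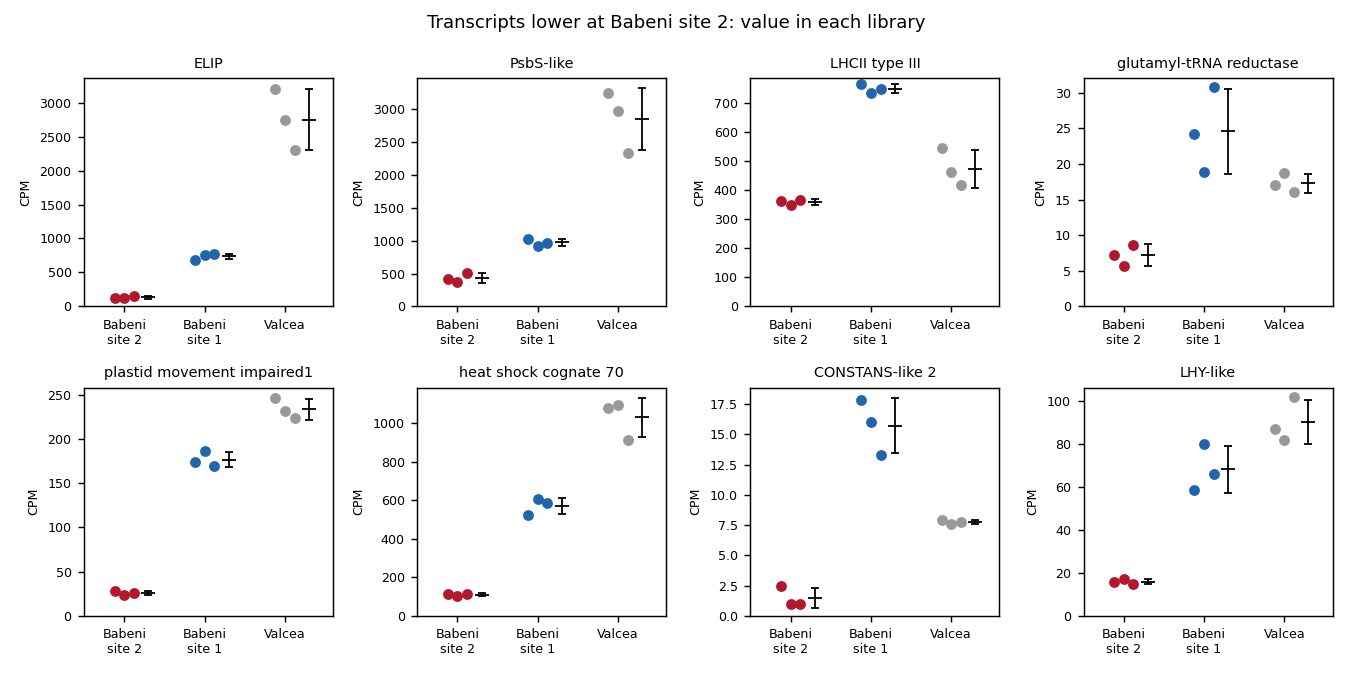
Each panel plots 1 transcript that fell, with CPM upward from 0 and the 3 libraries of Babeni site 2 (red), Babeni site 1 (blue) and Valcea (grey) across; black bars are mean ± SD. In all 8 panels the red points lie below the blue points without overlap, and for ELIP, PsbS-like, plastid movement impaired1, heat shock cognate 70 and LHY-like the Valcea points lie above both.

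Light signalling and clock transcripts changed in both directions, mostly downward. Of 67 tested members 24 fell (35.8%, in 12 loci) and 5 rose (7.46%, in 2 loci), with a median of -0.73. CONSTANS-like and B-box factors, zinc finger proteins that pass on light and day-length signals, were among the widest changes. In a list of such factors made after the values were seen, 21 of 40 fell in 11 loci and 5 rose in 2. CONSTANS-like 2 (Locus_1517_Transcript_3_5_) had 2.46, 1.001 and 1.01 CPM at Babeni site 2, against 17.8, 16.03 and 13.3 CPM at Babeni site 1. Babeni site 2 replicate 1 was the highest of its group and was still far below every Babeni site 1 library (log2 difference -3.10 ± 0.25, limma adjusted p = 7.4e-07). A CCT protein of Locus_11587, where the other members are described as CONSTANS-like 1, had 9.83, 9.76 and 13.9 CPM at Babeni site 2, against 74.1, 70.8 and 78.5 CPM at Babeni site 1 (Locus_11587_Transcript_5_6_). Those groups did not overlap either (log2 difference -2.70 ± 0.15, limma adjusted p = 5.9e-09).

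Transcripts described as salt tolerance, the name of a B-box protein in Arabidopsis, were nearly absent at Babeni site 2. Locus_3802_Transcript_1_3_ had 0.351, 0.501 and 0.144 CPM at Babeni site 2, against 4.98, 8.78 and 4.73 CPM at Babeni site 1, where 3 reads correspond to 0.351 to 0.433 CPM in the Babeni site 2 libraries (log2 difference -2.97 ± 0.30, limma adjusted p = 7.2e-06). A B-box zinc finger transcript, Locus_5544_Transcript_1_1_, chosen after its values were seen, had 8.89, 7.01 and 8.37 CPM at Babeni site 2, against 42.1, 44.7 and 50.1 CPM at Babeni site 1. No Babeni site 2 value came near the Babeni site 1 values (log2 difference -2.43 ± 0.15, limma adjusted p = 2.7e-08). B-box domain protein 28 (Locus_8350_Transcript_3_4_, chosen likewise) averaged 5.195 ± 0.551 CPM at Babeni site 2, against 23.7 ± 2.53 CPM at Babeni site 1 (SD, n = 3 each), with a log2 difference of -2.09 ± 0.17. A transcript described as ghd7, in rice a repressor of flowering in long days, had 2.34, 3.76 and 2.17 CPM at Babeni site 2, against 21.3, 23.1 and 23.2 CPM at Babeni site 1 (Locus_2071_Transcript_11_15_). Of 9 tested transcripts of Locus_2071 it fell most and 4 others fell, while the locus sum differed by -0.965 ± 0.10 on the log2 scale and missed 2-fold (this transcript: log2 difference -2.85 ± 0.19, limma adjusted p = 6.4e-08).

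Partners in the repression of light responses fell too. Both tested COP1-like transcripts of Locus_10139 fell, COP1 being a ubiquitin ligase that removes light-promoting factors in the dark, and 4 transcripts of that description at other loci did not pass. Of 6 transcripts described as SPA1-related 3, a partner of COP1 in Arabidopsis, 4 fell. Locus_3617_Transcript_18_19_ had 19.2, 17.6 and 16.3 CPM at Babeni site 2, against 39.1, 43.1 and 38.7 CPM at Babeni site 1, a tight separation of a little over 2-fold (log2 difference -1.16 ± 0.16, limma adjusted p = 0.0002, chosen after its values were seen). COP1-like Locus_10139_Transcript_1_2_ had 0.819, 1.001 and 0.433 CPM at Babeni site 2, against 6.702, 9.16 and 11.4 CPM at Babeni site 1, so no Babeni site 2 library reached the lowest Babeni site 1 value (log2 difference -2.94 ± 0.27, limma adjusted p = 3.6e-06). All 4 tested transcripts described as a phytochrome A-associated F-box protein fell. Locus_5988_Transcript_2_2_ of these, chosen after its values were seen, averaged 1.38 ± 0.314 CPM at Babeni site 2, against 8.8003 ± 1.58 CPM at Babeni site 1 (SD, n = 3 each; log2 difference -2.30 ± 0.23). A cryptochrome 2 transcript, a blue light receptor, averaged 9.18 ± 1.34 CPM at Babeni site 2, against 20.9 ± 2.64 CPM at Babeni site 1 (SD, n = 3 each; Locus_17405_Transcript_5_6_, log2 difference -1.15 ± 0.17, chosen after its values were seen).

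Clock members split. LHY, a MYB factor of the morning arm of the Arabidopsis clock, was represented by 6 tested transcripts of Locus_408, of which 3 fell. Locus_408_Transcript_39_41_, chosen after its values were seen, had 15.9, 16.9 and 14.9 CPM at Babeni site 2, against 58.4, 79.95 and 65.99 CPM at Babeni site 1. The ranges lay far apart (log2 difference -2.06 ± 0.14, limma adjusted p = 1.1e-07). Of 8 tested transcripts of Locus_4292, 7 rose instead, among them the 4 described as a CCT motif family, the domain shared by CONSTANS and the pseudo-response regulators of the clock. That description alone does not place them in the clock, and they are also counted among the CONSTANS-like and B-box factors above. Locus_4292_Transcript_9_10_, chosen after its values were seen, had 17.5, 20.7 and 16.3 CPM at Babeni site 2, against 6.32, 7.25 and 7.31 CPM at Babeni site 1, and Valcea had 2.78, 3.55 and 4.52 CPM. Babeni site 2 was the highest of the 3 places for it (log2 difference 1.32 ± 0.20, limma adjusted p = 0.00058). The words of the list did not catch the next transcripts, both chosen after their values were seen. An APRR3-like response regulator, Locus_11255_Transcript_6_13_, had 6.20, 4.26 and 7.36 CPM at Babeni site 2, against 1.72, 2.48 and 1.72 CPM at Babeni site 1. It rose (log2 difference 1.36 ± 0.28, limma adjusted p = 0.0077), but not with a pseudocount of 2 or without site 2 replicate 1 or 3. An RVE1-like transcript, from the LHY family, had 1.404, 0.501 and 0.433 CPM at Babeni site 2, against 3.45, 5.53 and 6.88 CPM at Babeni site 1 (Locus_3440_Transcript_10_11_). It was low everywhere, and Babeni site 2 was lowest without overlap (log2 difference -2.21 ± 0.32, limma adjusted p = 0.00039).

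Chaperone transcripts changed in both directions. Of 105 tested heat shock proteins and chaperones 20 fell (19%, in 10 loci) and 5 rose (4.76%, in 3 loci), with a median of -0.36. The count of risen members was 3 without site 2 replicate 1 or 3 and 9 without site 1 replicate 2. Of the fallen members 11 belong to Locus_1034, the cytosolic HSP70 or HSC70 chaperones, which refold proteins. Locus_1034_Transcript_35_36_, described as heat shock cognate 70, had 113, 102 and 115 CPM at Babeni site 2, against 523, 606 and 585 CPM at Babeni site 1. The groups were tight and far apart (log2 difference -2.37 ± 0.12, limma adjusted p = 1.8e-09). Valcea libraries had 1082, 1098 and 914 CPM, so the order ran Valcea, Babeni site 1, Babeni site 2. The steepest member, Locus_1034_Transcript_29_36_, had 1.05, 1.88 and 1.44 CPM at Babeni site 2, against 16.9, 23.3 and 21.3 CPM at Babeni site 1 and 35.3, 35.97 and 35.9 CPM at Valcea, again lowest at Babeni site 2 without overlap (log2 difference -3.43 ± 0.19). Summed over the 18 transcripts of the locus the signal was 231, 235 and 228 CPM at Babeni site 2, against 978, 1107 and 1060.4 CPM at Babeni site 1.

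DnaJ proteins, the partners that hand substrates to HSP70, fell in some loci and rose in others. A DnaJ-related transcript, Locus_2019_Transcript_2_3_, had 0.351, 0.501 and 0.433 CPM at Babeni site 2, against 5.74, 6.68 and 7.31 CPM at Babeni site 1, each Babeni site 2 value standing for a few reads (log2 difference -2.93 ± 0.24, limma adjusted p = 6.2e-07). The 5 risen members of the list are also DnaJ proteins, described as chloroplastic or by their DnaJ domain. Locus_11518_Transcript_1_1_, chosen after its values were seen, had 150.4, 154 and 163 CPM at Babeni site 2, against 56.3, 53.4 and 51.6 CPM at Babeni site 1. Babeni site 2 was higher with no overlap (log2 difference 1.53 ± 0.17, limma adjusted p = 2.4e-05). Locus_6234_Transcript_1_1_, chosen likewise, had 95.2, 96.6 and 96.2 CPM at Babeni site 2, against 40.6, 35.7 and 41.5 CPM at Babeni site 1, an almost constant level within each group (log2 difference 1.28 ± 0.13, limma adjusted p = 1.1e-05). No heat shock member of Locus_1034 rose.

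Exo70 proteins, subunits of the exocyst that tethers secretory vesicles to the plasma membrane, formed a further fallen group, noticed and listed after the values were seen, as were the members named here. Of 28 tested transcripts 17 fell, in 5 of 12 loci, and none rose, with a median of -1.39. The highest difference in the list was 1.13, and 1 member rose without site 2 replicate 2 or site 1 replicate 3. Locus_2209_Transcript_5_6_ had 26.4, 25.7 and 26.1 CPM at Babeni site 2, against 88.9, 83.8 and 93.7 CPM at Babeni site 1. Babeni site 2 libraries were nearly identical and all below Babeni site 1 (log2 difference -1.75 ± 0.14, limma adjusted p = 9.2e-07). At Locus_1894 all 4 tested Exo70 members fell, and the 6 transcripts of the locus summed to 74.0, 73.1 and 89.4 CPM at Babeni site 2, against 265, 268 and 275 CPM at Babeni site 1. Valcea gave 415, 380.3 and 297 CPM for that sum. At Locus_1328, Locus_1328_Transcript_7_8_ had 1.52, 1.502 and 2.02 CPM at Babeni site 2, against 13.8, 12.98 and 17.6 CPM at Babeni site 1, with no overlap (log2 difference -2.81 ± 0.20, limma adjusted p = 1.5e-07). An Exo70B1-like transcript of Locus_86 averaged 23.3 ± 2.05 CPM at Babeni site 2, against 52.7 ± 8.37 CPM at Babeni site 1 (SD, n = 3 each; Locus_86_Transcript_8_9_, log2 difference -1.15 ± 0.15). A myosin-2-like transcript, Locus_5611_Transcript_1_1_, also among the 5 fallen described transcripts with the highest CPM, had 188, 193 and 216 CPM at Babeni site 2, against 467, 429 and 471 CPM at Babeni site 1 (log2 difference -1.20 ± 0.12, limma adjusted p = 8.7e-06).

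Carbohydrate transcripts changed in both directions. Of 114 tested members of the starch, sucrose and sugar list 15 rose (13.2%, in 10 loci) and 9 fell (7.89%, in 6 loci), with a median of 0.19. The risen count was 8 without site 2 replicate 1 and 9 without site 1 replicate 3. Transporters of sugar phosphates were among the risen members. A sugar phosphate exchanger (Locus_8641_Transcript_1_1_) had 27.1, 32.3 and 32.6 CPM at Babeni site 2, against 6.32, 6.11 and 7.74 CPM at Babeni site 1. Babeni site 2 stood above both other places without overlap, Valcea being lowest at 1.99, 1.89 and 1.69 CPM (log2 difference 2.11 ± 0.19, limma adjusted p = 1.9e-06). A second locus of the same description, Locus_12094_Transcript_1_2_, chosen after its values were seen, had 10.6, 12.8 and 13.9 CPM at Babeni site 2, against 2.49, 3.24 and 3.22 CPM at Babeni site 1 (log2 difference 1.89 ± 0.26, limma adjusted p = 0.00017). The 4 transcripts of Locus_1187 described as glucose-6-phosphate translocators, which carry hexose phosphate across the plastid envelope, rose, and 2 undescribed ones of the locus did not pass. Locus_1187_Transcript_6_8_ of them had 35.2, 29.2 and 34.6 CPM at Babeni site 2, against 13.98, 17.9 and 13.3 CPM at Babeni site 1, with Valcea in between at 22.6, 26.3 and 27.5 CPM (log2 difference 1.11 ± 0.16, limma adjusted p = 0.0003). In a list of such transporters made after the values were seen, 7 of 8 rose, in 3 loci.

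Starch enzymes were also among the risen members. Granule-bound starch synthase, which makes amylose, had 362, 415 and 357 CPM at Babeni site 2, against 155, 181 and 187 CPM at Babeni site 1 (Locus_1753_Transcript_10_14_). Its Babeni site 2 libraries were all higher, without overlap (log2 difference 1.12 ± 0.12, limma adjusted p = 1.7e-05). Summed over the 10 tested transcripts of Locus_1753 the difference missed 2-fold (0.95 ± 0.11), and 2 further transcripts of that description in the locus did not pass, with -1.845 and -0.66. Other transcripts with that description, at Locus_13029 and Locus_256, fell, so transcripts of that description moved both ways. All 5 tested transcripts of Locus_4710, described as an inactive beta-amylase 9, whose Arabidopsis relative lacks amylase activity, rose, and the 6 with that description at 3 other loci did not pass. Locus_4710_Transcript_7_8_, chosen after its values were seen, had 42.5, 46.9 and 43.9 CPM at Babeni site 2, against 15.5, 16.98 and 25.8 CPM at Babeni site 1 (log2 difference 1.21 ± 0.17, limma adjusted p = 0.00023). A plastid alpha-glucan phosphorylase, which releases glucose phosphate from starch, had 12.98, 11.5 and 10.5 CPM at Babeni site 2, against 3.45, 6.87 and 5.16 CPM at Babeni site 1 (Locus_5553_Transcript_7_9_, log2 difference 1.15 ± 0.24, chosen after its values were seen). It no longer passed without site 2 replicate 1 (1.07, limma adjusted p = 0.053) or site 1 replicate 1 (0.91).

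Among fallen members a plastid fructose-bisphosphate aldolase, an enzyme of the Calvin cycle, had 0.585, 1.63 and 1.16 CPM at Babeni site 2, against 5.55, 7.25 and 6.23 CPM at Babeni site 1 (Locus_267_Transcript_3_6_, log2 difference -2.12 ± 0.27, limma adjusted p = 0.00011). Of the 28 tested transcripts of Locus_326, where descriptions name sucrose synthase, 2 fell. Locus_326_Transcript_38_43_, chosen after its values were seen, averaged 78.6 ± 9.64 CPM at Babeni site 2, against 172 ± 6.92 CPM at Babeni site 1 (SD, n = 3 each; log2 difference -1.13 ± 0.13). The whole locus differed little, with 2860.3, 2309 and 2529 CPM at Babeni site 2, against 2827, 2844 and 2797 CPM at Babeni site 1. Carbon fixation and photorespiration had 10 of 113 fallen (8.85%, in 8 loci) and 1 risen (0.885%), with a median of -0.305. The fallen share was close to the background of 8.67%, and the risen share was below the background of 5.41%. A rubisco activase transcript had 7.02, 6.88 and 7.796 CPM at Babeni site 2, against 16.5, 17.2 and 15.9 CPM at Babeni site 1 (Locus_427_Transcript_2_3_, log2 difference -1.14 ± 0.16, limma adjusted p = 0.00024). A phosphoenolpyruvate carboxylase, in Hydrilla, a relative, the first carboxylase of an inducible carbon-concentrating pathway, averaged 1.502 ± 0.241 CPM at Babeni site 2, against 6.83 ± 1.75 CPM at Babeni site 1 (SD, n = 3 each; Locus_528_Transcript_4_5_, log2 difference -1.85 ± 0.23, chosen after its values were seen).

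**Figure D5:**
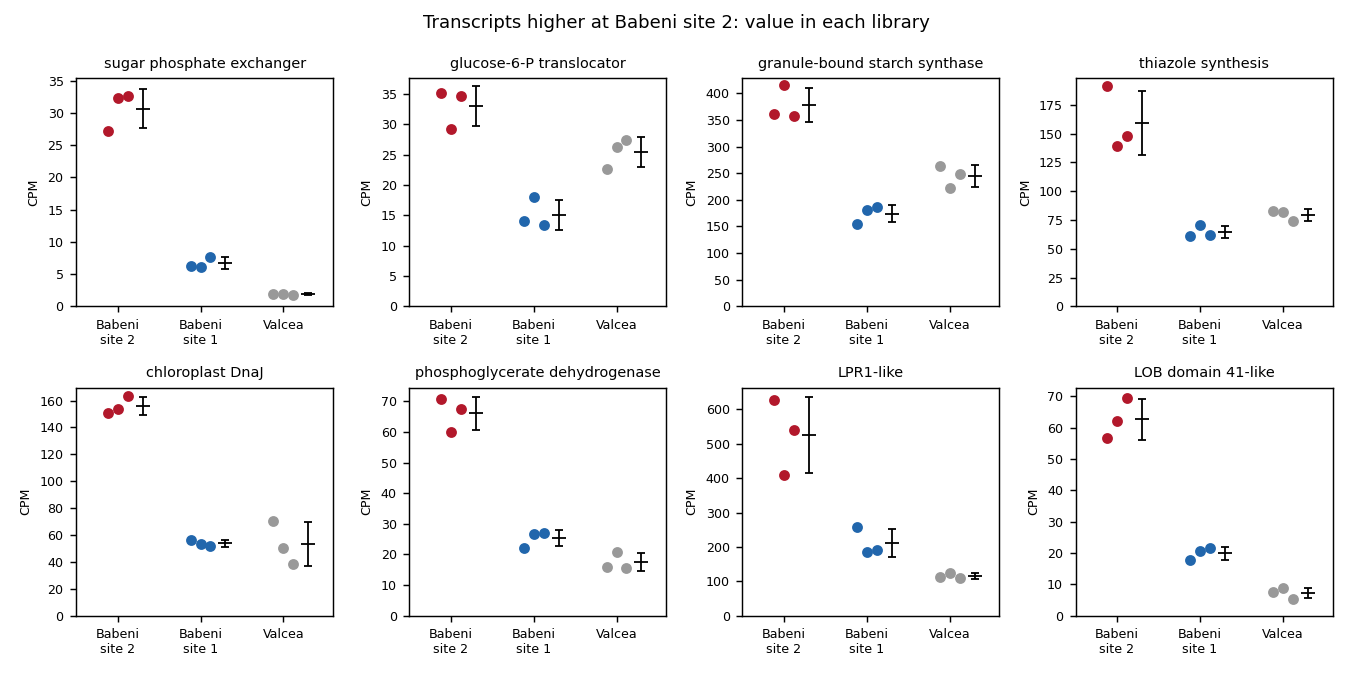
Each panel plots 1 transcript that rose, with CPM upward from 0 and the 3 libraries of Babeni site 2 (red), Babeni site 1 (blue) and Valcea (grey) across; black bars are mean ± SD. In all 8 panels the red points lie above the blue and the grey points, and the order of Babeni site 1 and Valcea differs between panels.

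Enzymes of vitamin and amino acid synthesis were among the risen transcripts. In a list of thiamine thiazole synthesis made after the values were seen, 4 of 7 rose in 3 loci and none fell. The thiamin biosynthetic Locus_6996_Transcript_1_1_ had 294, 264 and 300.2 CPM at Babeni site 2, against 125, 115 and 108 CPM at Babeni site 1, all higher at Babeni site 2 (log2 difference 1.30 ± 0.13, limma adjusted p = 7.1e-06). The thiazole biosynthetic Locus_1634_Transcript_2_2_, chosen after its values were seen, had 191, 139 and 148 CPM at Babeni site 2, against 61.1, 70.6 and 61.7 CPM at Babeni site 1 and behaved alike (log2 difference 1.29 ± 0.14, limma adjusted p = 1.4e-05). D-3-phosphoglycerate dehydrogenase begins serine synthesis in plastids. Its Locus_3461_Transcript_2_2_ had 70.7, 60.1 and 67.6 CPM at Babeni site 2, against 22.2, 26.7 and 26.9 CPM at Babeni site 1, with no overlap (log2 difference 1.37 ± 0.15, limma adjusted p = 2.4e-05, chosen after its values were seen). Another locus of that description, Locus_7764_Transcript_2_2_, chosen likewise, averaged 63.4 ± 3.01 CPM at Babeni site 2, against 26.5 ± 1.797 CPM at Babeni site 1 (SD, n = 3 each; log2 difference 1.24 ± 0.14). A tetraketide alpha-pyrone reductase 1-like transcript, in Arabidopsis an enzyme of pollen wall lipids, had 302, 265 and 326 CPM at Babeni site 2, against 138, 101 and 116 CPM at Babeni site 1 (Locus_1490_Transcript_8_9_, log2 difference 1.33 ± 0.13, limma adjusted p = 6.8e-06).

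Flavonoid transcripts moved both ways, with 5 of 74 risen (6.76%) and 5 fallen (6.76%, 3 without site 1 replicate 3). An anthocyanidin O-glucosyltransferase-like transcript, which would add sugar to anthocyanidin, was almost lost at Babeni site 2. Locus_9876_Transcript_2_4_ had 0.819, 1.001 and 1.16 CPM at Babeni site 2, against 25.5, 24.4 and 24.3 CPM at Babeni site 1, each Babeni site 2 library lying low (log2 difference -4.09 ± 0.19, limma adjusted p = 1.2e-09). A transcript described as anthocyanin 2, Locus_11825_Transcript_3_3_, averaged 1.48 ± 0.514 CPM at Babeni site 2, against 13.4 ± 2.74 CPM at Babeni site 1 (SD, n = 3 each; log2 difference -2.83 ± 0.22). A flavonoid 3'-monooxygenase-like transcript went the other way, with 214, 184 and 246 CPM at Babeni site 2, against 77.6, 73.8 and 80.4 CPM at Babeni site 1 (Locus_1519_Transcript_1_1_). Its groups did not overlap (log2 difference 1.46 ± 0.13, limma adjusted p = 1.6e-06).

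The transcription factor list, which includes some of the CONSTANS-like and B-box factors above, gave 25 of 262 risen (9.54%, in 18 loci) and 21 fallen (8.02%, in 15 loci). The fallen share was near the background of 8.67%, and the risen share was above the background of 5.41%. The risen count was 15 without site 2 replicate 1 and 14 without site 2 replicate 3. LOB domain 41-like transcripts, whose Arabidopsis relative responds to low oxygen, rose in 2 loci. Locus_3435_Transcript_1_1_, chosen after its values were seen, had 56.5, 61.96 and 69.4 CPM at Babeni site 2, against 17.6, 20.6 and 21.5 CPM at Babeni site 1. Babeni site 2 lay above Babeni site 1 without overlap, and Valcea was lowest at 7.55, 8.76 and 5.46 CPM (log2 difference 1.63 ± 0.17, limma adjusted p = 1.6e-05). The rarer Locus_8837_Transcript_1_2_ had 6.1999, 6.38 and 6.79 CPM at Babeni site 2, against 1.72, 1.34 and 0.645 CPM at Babeni site 1 (log2 difference 2.06 ± 0.37, limma adjusted p = 0.0023), and with a pseudocount of 0.1 it did not pass (limma adjusted p = 0.052). A bZIP63 factor, in Arabidopsis a regulator of the response to low energy, had 15.1, 17.5 and 19.3 CPM at Babeni site 2, against 4.21, 3.05 and 4.299 CPM at Babeni site 1 (Locus_2290_Transcript_5_9_, log2 difference 2.04 ± 0.27, limma adjusted p = 0.00015). A MYB-like factor, Locus_7769_Transcript_14_15_, had 9.94, 11.8 and 15.2 CPM at Babeni site 2, against 1.72, 2.099 and 3.65 CPM at Babeni site 1 (log2 difference 2.13 ± 0.26, limma adjusted p = 5.5e-05); at Valcea it had 8.74, 6.63 and 6.02 CPM. A MYB-like DNA-binding transcript, Locus_2369_Transcript_1_1_, fell instead, with 35.3, 47.9 and 39.4 CPM at Babeni site 2, against 150.1, 168 and 155 CPM at Babeni site 1 (log2 difference -1.95 ± 0.13, limma adjusted p = 6.8e-08).

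Hormone and kinase lists had shares near or under the background. An ARR9-like response regulator, a target and brake of cytokinin signalling in Arabidopsis, had 18.01, 16.8 and 18.6 CPM at Babeni site 2, against 3.06, 5.34 and 4.73 CPM at Babeni site 1 (Locus_7127_Transcript_2_2_, log2 difference 1.94 ± 0.20, limma adjusted p = 9.4e-06). Its Valcea level, 19.5, 15.1 and 16.6 CPM, was close to that of Babeni site 2. Abscisic acid 8'-hydroxylase, which breaks down abscisic acid, averaged 13.3 ± 2.67 CPM at Babeni site 2, against 31.9 ± 1.09 CPM at Babeni site 1 (SD, n = 3 each) and fell (Locus_5297_Transcript_3_4_, log2 difference -1.25 ± 0.18, chosen after its values were seen). Of 66 jasmonate, ethylene and abscisic acid members 4 rose and 4 fell, and of 39 auxin members 3 rose and 1 fell (2 without site 2 replicate 3). An auxin-responsive family transcript had 144, 130.1 and 160.4 CPM at Babeni site 2, against 70.1, 51.9 and 60.2 CPM at Babeni site 1 (Locus_9454_Transcript_1_1_, log2 difference 1.25 ± 0.13, limma adjusted p = 1.6e-05).

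Receptor-like kinases gave 6 of 144 risen (3 without site 2 replicate 1 or 2) and 9 fallen (3 without site 2 replicate 3, 4 without site 1 replicate 1 and 5 without site 2 replicate 2). An L-type lectin receptor kinase, Locus_5876_Transcript_2_2_, averaged 1.59 ± 0.529 CPM at Babeni site 2, against 7.305 ± 1.91 CPM at Babeni site 1 (SD, n = 3 each; log2 difference -1.90 ± 0.28). Immunity and defence gave 5 of 43 risen and 3 fallen (1 without any single Babeni site 2 library or site 1 replicate 3). The widest rise there was a pathogenesis-related protein class I transcript with 21.8, 44.4 and 33.6 CPM at Babeni site 2, against 6.702, 8.59 and 8.598 CPM at Babeni site 1 (Locus_18711_Transcript_3_5_), in which the Babeni site 2 libraries spread most but stayed above all others (log2 difference 1.95 ± 0.22, limma adjusted p = 3.5e-05). A hypersensitive-induced response protein had 25.5, 22.4 and 24.8 CPM at Babeni site 2, against 8.81, 4.39 and 6.66 CPM at Babeni site 1 (Locus_1647_Transcript_12_13_, log2 difference 1.84 ± 0.29, limma adjusted p = 0.00076, chosen after its values were seen). A disease resistance response protein averaged 92.02 ± 5.32 CPM at Babeni site 2, against 33.7 ± 0.924 CPM at Babeni site 1 (SD, n = 3 each; Locus_1348_Transcript_1_2_, log2 difference 1.44 ± 0.13). Endochitinase PR4 averaged 7.17 ± 0.251 CPM at Babeni site 2, against 19.4 ± 1.46 CPM at Babeni site 1 (SD, n = 3 each) and fell (Locus_645_Transcript_2_2_, log2 difference -1.37 ± 0.20, chosen after its values were seen).

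Ubiquitin ligases and F-box proteins had 13 of 184 risen (8 without site 1 replicate 3) and 21 fallen. An ATL6-like ubiquitin ligase, from a family that Arabidopsis uses in carbon, nitrogen and defence responses, had the widest fall. Locus_4126_Transcript_6_7_ had 1.05, 1.502 and 2.17 CPM at Babeni site 2, against 21.1, 20.04 and 20.2 CPM at Babeni site 1, and 69.1, 63.4 and 46.8 CPM at Valcea. Babeni site 2 was lowest of the 3 places (log2 difference -3.37 ± 0.20, limma adjusted p = 2e-08), and 5 transcripts of the locus fell. In the other direction an F-box SKIP23-like transcript averaged 63.1 ± 6.65 CPM at Babeni site 2, against 28.6 ± 4.52 CPM at Babeni site 1 (SD, n = 3 each; Locus_12043_Transcript_2_2_, log2 difference 1.14 ± 0.17). Cell wall members rose in 9 of 79 cases (11.4%) and fell in 2. That risen count was 2 without site 1 replicate 3, 3 without site 2 replicate 1 and 5 without site 2 replicate 3 or site 1 replicate 2, and the fallen count 0 without site 1 replicate 1 or 3 and 1 without site 2 replicate 1 or 2. Calcium signalling had 8 of 78 risen, 5 of them in Locus_1608, and 2 fallen, and the risen count was 2 without site 2 replicate 1, 3 without site 2 replicate 2 or 3 and 4 without site 1 replicate 1. The fallen count was 0 without site 1 replicate 1 and 1 without any other single library. RNA-binding and splicing proteins had 8 of 90 fallen and none risen, and 2 to 5 fallen with any single Babeni library left out. Lipid metabolism had 9 of 120 fallen and 3 risen, and the risen count was 0 without site 2 replicate 3 and 1 without site 2 replicate 1 or site 1 replicate 1.

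Of 32 metal transport members 3 rose and 3 fell (9.38% each). The risen count was 1 without site 2 replicate 1 and 5 without site 1 replicate 1. All 3 risen ones are LPR1-like multicopper oxidases, in Arabidopsis ferroxidases of the root response to low phosphate. Locus_7337_Transcript_1_1_, one of the 5 risen described transcripts with the highest CPM, had 627, 408 and 541 CPM at Babeni site 2, against 257, 185 and 191 CPM at Babeni site 1. Its Babeni site 2 libraries spread widely and still lay above all Babeni site 1 libraries, with Valcea lowest at 113, 124 and 109.9 CPM (log2 difference 1.31 ± 0.16, limma adjusted p = 5.8e-05). Locus_6800_Transcript_1_1_, chosen after its values were seen, had 51.8, 38.1 and 38.1 CPM at Babeni site 2, against 18.6, 18.7 and 19.3 CPM at Babeni site 1 (log2 difference 1.14 ± 0.15, and 0.99 without site 2 replicate 1, where it missed 2-fold). Here Valcea was highest, at 55.2, 67.2 and 57.8 CPM. The third, Locus_3341_Transcript_2_2_, averaged 3.51 CPM at Babeni site 2, 1.07 CPM at Babeni site 1 and 3.57 CPM at Valcea (log2 difference 1.38 ± 0.31). It did not pass with a pseudocount of 2 or without site 2 replicate 1 or site 1 replicate 2. The 3 fallen ones belong to Locus_507, described as heavy metal transport or detoxification proteins, which carry a metal-binding domain. Locus_507_Transcript_18_21_, chosen after its values were seen, had 13.9, 12.1 and 14.3 CPM at Babeni site 2, against 36.6, 23.5 and 32.5 CPM at Babeni site 1. The lowest Babeni site 1 library was well above the highest Babeni site 2 library (log2 difference -1.15 ± 0.18, limma adjusted p = 0.00064), and Valcea had 40.9, 54.9 and 41.01 CPM. ABC transporters, some of which move metal complexes, gave 0 of 31 changed by limma (14 at an unadjusted p under 0.05) and 1 each by edgeR and DESeq2 (1 fallen by limma without site 2 replicate 3 or site 1 replicate 1).

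Antioxidant and thiol enzymes gave 10 of 97 risen (10.3%, in 7 loci) and 4 fallen (4.12%). These counts depended on single libraries. The risen count was 5 without site 2 replicate 2 or 3 and 6 without site 1 replicate 2, and the fallen count was 2 without site 2 replicate 1 or 2 or site 1 replicate 1 and 1 without site 1 replicate 2. Catalase, which breaks down hydrogen peroxide, had transcripts of Locus_9527 in both directions. Locus_9527_Transcript_13_21_ had 38.1, 34.05 and 34.9 CPM at Babeni site 2, against 14.9, 12.4 and 16.3 CPM at Babeni site 1, higher at Babeni site 2 without overlap (log2 difference 1.27 ± 0.21, limma adjusted p = 0.0011). Locus_9527_Transcript_12_21_ of the same locus had 1.17, 1.38 and 2.17 CPM at Babeni site 2, against 4.596, 4.01 and 3.87 CPM at Babeni site 1 (log2 difference -1.20 ± 0.32, limma adjusted p = 0.036). That fall is of a low transcript and was lost without any single library other than site 2 replicate 3, and also with the replicate block (limma adjusted p = 0.062), in DESeq2 (adjusted p = 0.073), with a pseudocount of 0.1 (limma adjusted p = 0.079) or 2 (-0.79, short of 2-fold) and with thinned reads (limma adjusted p = 0.17). Both were chosen after their values were seen. The locus as a whole had 883, 727 and 755 CPM at Babeni site 2, against 514, 384 and 480.2 CPM at Babeni site 1, a difference of 0.78 ± 0.13 that missed 2-fold. A second locus had opposite calls, Locus_2290, where the bZIP63 transcript rose and a CPRF2-like one, also a bZIP description, fell with 2.69, 3.63 and 2.31 CPM at Babeni site 2, against 8.04, 7.25 and 6.66 CPM at Babeni site 1 (Locus_2290_Transcript_8_9_, log2 difference -1.23 ± 0.25, chosen after its values were seen; it missed 2-fold with a pseudocount of 2 or thinned reads). These were the only 2 of 185 loci with several changed transcripts whose calls pointed both ways.

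Sulfur assimilation gave 0 of 14 changed by limma (4 at an unadjusted p under 0.05) and 0 by edgeR and DESeq2. Nitrogen uptake gave 2 of 56 risen, both ammonium transporters of Locus_70 (1 without site 2 replicate 3 or site 1 replicate 2 or 3), and 4 fallen, all nitrate transporter-like transcripts of Locus_4915. Locus_70_Transcript_4_5_, chosen after its values were seen, had 20.8, 17.4 and 20.8 CPM at Babeni site 2, against 8.43, 9.35 and 7.31 CPM at Babeni site 1 (log2 difference 1.19 ± 0.17, limma adjusted p = 0.00031). Valcea lay above both Babeni sites, at 36.1, 41.4 and 29.0 CPM. Locus_4915_Transcript_15_16_ had 14.4, 11.4 and 15.6 CPM at Babeni site 2, against 37.9, 30.5 and 37.4 CPM at Babeni site 1, without overlap (log2 difference -1.33 ± 0.16, limma adjusted p = 6e-05). The nitrate transporter of high affinity, Locus_1335_Transcript_18_19_, chosen after its values were seen, had 31.7, 25.2 and 31.04 CPM at Babeni site 2, against 34.1, 26.3 and 32.7 CPM at Babeni site 1, so the Babeni sites overlapped and it did not pass (log2 difference -0.08 ± 0.17), while Valcea had 423, 353 and 256 CPM. Phosphate acquisition gave 4 of 24 risen, but 3 of these are the glucose-6-phosphate translocators above, which exchange phosphate for sugar phosphate. Potassium transporters gave 2 risen and 1 fallen among 44 ion channel and pump members (1 risen without site 1 replicate 2, 3 fallen without site 1 replicate 1 and 2 without site 2 replicate 2), for example Locus_14750_Transcript_1_1_ with 4.68, 3.76 and 3.75 CPM at Babeni site 2, against 0.957, 1.14 and 1.505 CPM at Babeni site 1 (log2 difference 1.43 ± 0.27, limma adjusted p = 0.0035).

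Ribosomal signals varied between libraries of 1 site. Of 38 cytosolic ribosomal proteins 3 rose, and 0 did without site 2 replicate 2 or 3 or site 1 replicate 3. 40S protein S18 (Locus_12873_Transcript_1_1_) had 6.32, 11.5 and 9.67 CPM at Babeni site 2, against 2.87, 2.29 and 1.07 CPM at Babeni site 1, and 4.37, 15.6 and 25.2 CPM at Valcea, where the libraries spread widely (log2 difference 1.94 ± 0.45, limma adjusted p = 0.015). Locus_10 gathers transcripts described by names that public databases attach to ribosomal RNA. Its sum was 7087, 4264 and 10132 CPM at Babeni site 2, against 3436, 3183 and 4218 CPM at Babeni site 1 and 17740.4, 20070 and 2599 CPM at Valcea. Babeni site 2 was higher than Babeni site 1 by 0.91 ± 0.56 on the log2 scale, which did not pass, and Valcea replicate 3 lay far below the other Valcea libraries. Its risen members, such as Locus_10_Transcript_38_48_ with 143, 27.3 and 163 CPM at Babeni site 2, against 10.5, 25.6 and 17.8 CPM at Babeni site 1, are therefore given as values only. Adjusted p for that transcript was 0.04 with limma, and it was not under 0.05 when Babeni site 2 replicate 1 or 3 or site 1 replicate 1 or 3 was left out. Its part in the other results was not tested.

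Marker lists for the tissue and for other organisms were read at both sites. Of 78 photosynthetic leaf markers 39 fell and none rose, largely the antenna members above. Of 26 markers of dividing cells 1 rose, an RNA-directed DNA polymerase, which is a mobile-element description. The 4 guard cell markers, of 1 locus, gave 0 changed by limma (3 at an unadjusted p under 0.05), edgeR or DESeq2. Their summed signal was 1.404, 1.001 and 1.01 CPM at Babeni site 2, against 2.106, 4.5797 and 4.299 CPM at Babeni site 1. At Valcea it was 174, 173 and 141 CPM. At both Babeni sites these transcripts rest on few reads, where the log2 scale understates change. The 0 therefore cannot tell if guard cell signal differed between the Babeni sites. A fucoxanthin chlorophyll a/c protein, a protein of diatoms and brown algae, was the 1 transcript found for epiphytic algae, named after its values were seen, with 6.902, 8.26 and 8.66 CPM at Babeni site 2, against 9.0003, 8.59 and 11.2 CPM at Babeni site 1 (Locus_12779_Transcript_1_1_). Both groups overlapped and it did not pass (log2 difference -0.25 ± 0.17, limma adjusted p = 0.54), while Valcea had 21.8, 19.6 and 21.1 CPM. No described transcript matched the lists for vascular tissue or for fungi, bacteria and animals, and the descriptions cover a small share of the assembly.

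Most changed transcripts have no description, 627 of the risen ones (71.3%) and 522 of the fallen ones (56.4%). Of all 56752 tested transcripts 52091 have none, which is a larger share, because only transcripts in the authors' tables of changes could carry one. Among the 52091 undescribed transcripts 1.2% rose and 1.0% fell. The largest falls were among them, and the 4 named here were chosen after their values were seen. Locus_74217_Transcript_1_1_ had 1.404, 0.751 and 1.16 CPM at Babeni site 2, against 43.5, 42.7 and 43.4 CPM at Babeni site 1, 2 tight groups far apart (log2 difference -4.79 ± 0.19, limma adjusted p = 2.4e-10). Locus_105069_Transcript_1_1_ had 0.702, 0.501 and 1.16 CPM at Babeni site 2, against 30.6, 24.4 and 24.7 CPM at Babeni site 1 (log2 difference -4.42 ± 0.24, limma adjusted p = 5.1e-09). The largest rises were less even. Locus_82231_Transcript_1_1_ had 41.8, 14.6 and 16.2 CPM at Babeni site 2, against 0, 8.21 and 0 CPM at Babeni site 1 (log2 difference 4.09 ± 0.80, limma adjusted p = 0.005), with 2 Babeni site 1 libraries at 0 and the remaining one above 0. Locus_80314_Transcript_1_1_ had 32.4, 18.5 and 15.3 CPM at Babeni site 2, against 0, 5.15 and 0.4299 CPM at Babeni site 1 (log2 difference 3.96 ± 0.69, limma adjusted p = 0.0019), again with a single Babeni site 1 library well above 0.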

How the data were processed

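Stranded mRNA libraries of Elodea shoots, 3 per site, were compared between Babeni site 2 and Babeni site 1, grouped by their titles in the labels. The submitters' processing notes name edgeR 3.4.2, HTSeq 0.5.3p9, TopHat2 2.0.11 and BWA 0.7.10 with no role for any, and no source used here names the assembly. The authors deposited 1 signal value per transcript and library, edgeR CPM per the file names, and each library carries its own scaling factor. The plan assumed plain CPM. Library totals differ, so the values count here as scaled signal, tested as planned. Division by the worth of a single read gave whole reads for 100% of values within 0.01. Recovered depths were 6932366 to 7824727 reads at Babeni site 2 and 4578385 to 4985937 at Babeni site 1, where 3 reads correspond to 0.351 to 0.433 and 0.572 to 0.645 CPM. The authors' deposited tables of site comparisons give a log2 fold change, a log2 mean CPM, a p-value and an adjusted p-value per transcript, per the file headers. They cover only transcripts called changed at 2-fold and 5% false discovery, and their log2 fold change is positive where Babeni site 1 is higher.

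The test was limma 3.58.1 (R 4.3.3) with a trended prior variance and without covariates. It was fitted to log2(CPM + 0.5) of transcripts that reached 1 CPM in 3 or more of the 9 Elodea libraries, which shared a common estimate of the spread. p-values were adjusted by Benjamini and Hochberg over all 56752 transcripts. The fit was tested on simulated data. Of 58110 transcripts, 11717 appear in the authors' Elodea tables and 4704 of those carry a description. The members, the 28 lists and 6 marker lists were chosen with earlier results of these data known, and 6 more lists after their values were seen. A rule picked the 12 largest rises and falls among described transcripts with at least 5 CPM at the higher site. It also picked the 5 with the highest CPM in each direction, and each list's widest and highest-CPM changed member. All of these lacked overlap between sites, and the text names only some of them. The text marks any other transcript it names. Alternatives were sums per locus, the 6 Babeni libraries alone, thinning to 2875062 reads, a replicate block, each library left out, other filters on low values, pseudocounts of 0.1 and 2, scaling by median or by quantiles, a fit with no trend, a call by adjusted p only, and counts of recovered reads in DESeq2 1.42.0 and edgeR 4.0.16. Reads were not remapped.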

Additional observations from a re-analysis of the deposited data

How the results depend on the processing

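The fit used in the report gave 1805 changed transcripts, 879 risen and 926 fallen. A pseudocount of 2 gave 1054 (557 risen, 497 fallen) and a minimum of 5 CPM gave 1104 (511 risen, 593 fallen), in the second case with fewer transcripts tested. Adjusted p alone gave 2917 (1405 risen, 1512 fallen), since no fold was asked for, and 567 rose without the trend. Sums per locus gave 584 fallen loci. With 1 library left out the counts ran from 1221 to 1715 changed, 496 to 922 risen and 695 to 793 fallen. All other settings kept the 3 counts within 1.5 times, among them edgeR with 1038 risen and 1153 fallen, DESeq2 with 631 and 855, quantile normalization with 987 and 1098, and reads thinned to equal depth with 739 and 798. edgeR also called 1777 of the 1805 transcripts, or 98.4%, and DESeq2 1377, or 76.3%. No described transcript that rose or fell and is named here changed direction in any setting in which it was compared. Named transcripts that did not pass and the undescribed ones were outside that check. Deviations of libraries with the same replicate number correlated at -0.0633, -0.0628 and 0.0577, and those with different numbers at -0.12 to 0.169. These values cannot tell if the samples were paired by design, which the labels do not state. A fit with the number as a block gave 1670 changed (812 risen, 858 fallen). At Babeni site 1, values under about 0.645 CPM rest on 3 reads or fewer, which limits the precision of the lowest transcripts. The causes of these shifts, other than those named, were not tested.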
